A study of Homo sapiens with 6 samples.

Results

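The genes described here are the well expressed long noncoding RNAs (lncRNAs) of THP-1 cells, an established human acute myeloid leukemia (AML) line of monocytic type. A gene was taken when the count table labels it lncRNA and when it had 300 or more raw counts in each scrambled shRNA library or in each NFIC shRNA library. The small nucleolar RNA hosts of the SNHG group, GAS5, ZFAS1, EPB41L4A-AS1, DANCR and AC243967.1 were left out, which removed 18 of the 675 genes past the count rule. This left 657 of the 9140 lncRNA genes and of the 33981 genes in the table. The genes were thus chosen by the raw counts that are compared here. Of the 657, 520 met the rule in both groups, 68 in the scrambled shRNA group only and 69 in the NFIC shRNA group only. The rule favored a difference between the groups in genes of the latter kinds. Of these, 8 of the 68 and 12 of the 69 were still not called in the test below. The differences of both kinds are given as a description and without a p-value.

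The study compared 3 THP-1 libraries carrying scrambled shRNA with 3 carrying shRNA against NFIC, a member of the nuclear factor I family of transcription factors. The labels are followed here, although the paper's methods name a GFP only vector as the control of this experiment. With such a control, an effect of any hairpin and an effect of NFIC loss cannot be told apart either. Both groups were infected with lentivirus that also encodes GFP, sorted for GFP 4 days after infection and sequenced as bulk mRNA. Every library thus comes from the same line, and 1 NFIC hairpin was used, so an effect of NFIC loss and an effect particular to that hairpin cannot be told apart. The sources do not say that the replicates were separate cultures, so p-values measure the spread between these libraries, which may be technical.

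A lncRNA is transcribed and processed much like an mRNA but has no long reading frame of known use. Some are architectural, such as NEAT1, the scaffold of nuclear paraspeckles, and some act in the cytoplasm, such as NORAD, which binds RNA-binding proteins. Many others are known only as transcripts that lie antisense to a protein-coding gene, start next to its promoter in the other direction, or carry a microRNA in an intron or exon. In blood cells the hosts of miR-223 and miR-142 are among the best known, since both microRNAs mark the hematopoietic and myeloid lineages.

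The library totals were between 20369543 and 24809720 counts, so that 3 counts, taken as the limit of detection, equal 0.121 to 0.147 CPM (counts scaled to a common library size). These limits cover counting error only. NFIC itself had 911, 1019 and 904 counts with scrambled shRNA, against 399, 518 and 493 with NFIC shRNA, a log2 fold change of -0.99 ± 0.072 (SE; edgeR adjusted p = 3.73e-09). All 10 monocytic markers checked were at 1 CPM or more in every library, and CD3E and MS4A1, markers of T cells and B cells, had no count in any. Mitochondrial transcripts took 3.60% ± 0.094 of counts with scrambled shRNA, against 3.91% ± 0.20 with NFIC shRNA (SD, n = 3 per group), and the part of this in the results was not tested. In bulk RNA, fewer cells that express a gene and less of its RNA per cell cannot be told apart.

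The lncRNAs took 3.98% ± 0.021 of all counts with scrambled shRNA, against 3.88% ± 0.049 with NFIC shRNA (SD, n = 3 per group; exact two-sided permutation p = 0.1, the smallest that 3 against 3 allows). A few genes held much of this. The most counted lncRNA, AL138963.4, had 6.78% of the summed counts, the 10 most counted had 25.2% and the 50 most counted had 48.1%. The median lncRNA had a mean of 599 counts per library, and levels ran from 0.506 to 4505 FPKM (fragments per kilobase of gene length, scaled to library size).

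Of the 10 lncRNAs of highest FPKM, all but AC010761.1 and AL662797.2 lie wholly inside exons of other genes. AL138963.4 has 588 exon bases on chr13:45340039-45341183, plus strand, and each of them is also exonic in TPT1, the gene of translationally controlled tumor protein, on the minus strand. AC006064.4 lies at chr12:6537794-6538370, minus strand, and each of its 422 exon bases is exonic in GAPDH, the glycolytic enzyme. The 60 bases below, read 5′ to 3′ from the Gencode transcripts (GRCh38), are shown because a read from one strand of such a stretch cannot be given to 1 gene unless the library keeps the strand. The first pair is at chr13:45340039-45340098 and the second at chr12:6537926-6537985, within coding sequence of the mRNA.
AL138963.4: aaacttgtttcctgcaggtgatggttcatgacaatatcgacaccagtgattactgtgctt
TPT1 mRNA: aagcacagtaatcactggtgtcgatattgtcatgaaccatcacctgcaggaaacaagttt
AC006064.4: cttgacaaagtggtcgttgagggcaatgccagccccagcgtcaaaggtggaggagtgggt
GAPDH mRNA: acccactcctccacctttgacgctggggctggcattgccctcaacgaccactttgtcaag

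Among all lncRNA genes of the table, 312 lie wholly within exons of 1 protein-coding gene on the other strand. For 140 of these the protein-coding gene had a mean of 1000 or more counts, and 134 of the 140 lncRNA genes then had a mean of 10 or more. Their count per exon base was a median of 2.01 times that of the protein-coding gene, with a range of 0.219 to 4.16 from the 10th to the 90th percentile. The library kit, NEBNext Ultra, does not mark the strand. The strand setting of the counting is not given in the sources used here.

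For AL138963.4 the counts were 67124, 72098 and 68733 with scrambled shRNA, against 48451, 53650 and 48770 with NFIC shRNA. TPT1 had 118970, 125071 and 121022 against 81194, 92854 and 83555. Both genes were lower in all 3 NFIC shRNA libraries, with log2 fold changes of -0.45 ± 0.055 for the lncRNA and -0.49 ± 0.056 for TPT1. AC006064.4 changed by -0.64 ± 0.049 and GAPDH by -0.66 ± 0.051. AC020656.1, inside the gene of lysozyme (LYZ), a secreted antibacterial enzyme of monocytes, changed by 0.73 ± 0.097 and LYZ by 0.72 ± 0.095. AC145207.3, inside P4HB, which folds proteins in the endoplasmic reticulum, changed by 0.48 ± 0.046 and P4HB by 0.51 ± 0.047. AC010761.1 shares 25.3% of its exon bases with other genes, among them RPL23A, a ribosomal protein gene, and the changes were -1.22 ± 0.050 and -1.23 ± 0.049. All of the 10 lncRNAs of highest FPKM share exon bases with an mRNA. Among others of these, AC093484.3 had 0.58 and the ubiquitin gene UBB 0.55, AC092069.1 had -0.34 and the chaperone gene CALR -0.32, and AL160408.2 had -0.52 as did IRF2BP2. AL662797.2, which overlaps the tubulin gene TUBB and whose groups overlapped, had -0.04 ± 0.12 against -0.09 ± 0.094.

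Sharing of exons was the rule among the 657 genes. A Gencode release 44 entry was found for 651, and 38 of these share no exon base with another gene on either strand. A further 94 share up to 10%, 228 share 10 to 50%, 171 share 50 to under 100% and 120 share all of them. For 542 of the overlapping genes the gene with the most shared bases is protein-coding and was tested, and for 468 of the 542 it is on the opposite strand. The difference in log2 fold change between lncRNA and mRNA was under 0.2 for 463 of the 542. Across genes, which are not independent replicates, Pearson's r between the log2 fold changes was 0.78 over the 68 pairs with up to 10% shared, 0.91 over 204, 0.93 over 158 and 0.96 over the 112 lncRNAs that lie wholly inside other exons. The median absolute difference fell from 0.095 to 0.038 along these classes. The same reads may enter both values, so the lncRNA values of these pairs cannot be taken as separate measurements. How many reads were counted for both genes was not tested. The sources do not say how reads over more than 1 gene were counted. The lncRNAs for which counts of their own could be bounded are taken up below.

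By the test over all genes, 268 of the 657 lncRNAs were higher with NFIC shRNA, 199 were lower and 190 did not pass (edgeR quasi-likelihood test, Benjamini-Hochberg adjusted p under 0.05 over 19182 genes). Of all genes tested 59.9% were called, 29.6% higher and 30.3% lower, and of the 9006 protein-coding genes under the same count rule 72.3% were called, 42.2% higher and 30.1% lower. Of the 3717 lncRNA genes tested at any level 47.5% were called, 22.5% higher and 24.9% lower. The median log2 fold change was 0.064 over the lncRNAs, 0.081 over those protein-coding genes and -0.011 over all genes tested. A change of at least 1 on the log2 scale was reached by 14 higher and 32 lower lncRNAs, beside 11.9% of all genes tested, 13.5% of lncRNA genes and 6.38% of the protein-coding genes. The groups did not overlap for 483 of the 657, beside 65.2%, 54.3% and 76.3% of those sets. Of the 520 lncRNAs past the count rule in both groups, 211 were higher, 139 were lower and the median was 0.073. A change of at least 1 was reached by 6 higher and 11 lower of these 520. Another 8 higher and 21 lower had passed in only 1 group, the one where they were high, so the rule favored them. The share of the 657 that was called, 71.1%, is near that of the protein-coding genes.

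The largest changes mostly repeat those of an mRNA. AC007938.2 had 574, 729 and 526 counts with scrambled shRNA, against 147, 132 and 108 with NFIC shRNA, a log2 fold change of -2.21 ± 0.12. It overlaps MEST, an imprinted gene of the hydrolase fold family, which changed by -2.10 ± 0.070. AC145207.4 (-1.68 ± 0.093) lies inside PYCR1, a proline synthesis enzyme (-1.64 ± 0.081). AC009902.2 (-1.58 ± 0.13) overlaps the fatty acid carrier FABP5 (-1.64 ± 0.11), and GAS6-AS1 (-1.53 ± 0.14) overlaps GAS6, the ligand of the TAM receptor kinases (-1.52 ± 0.11). AC008649.1 (-1.50 ± 0.12) overlaps the kinase gene MAP4K1 (-1.34 ± 0.097), and ADAMTSL4-AS2 (-1.49 ± 0.13) overlaps ADAMTSL4 (-1.39 ± 0.10). Of these lower lncRNAs, all but GAS6-AS1 reached 300 counts with scrambled shRNA only, so the count rule favored their fall. Upward, AP003396.1 changed by 1.22 ± 0.083 and RNF26, a ubiquitin ligase gene that contains it, by 1.20 ± 0.067. PRC1-AS1 changed by 1.17 ± 0.073 and PRC1, a spindle midzone protein gene, by 1.19 ± 0.065. AC068580.3 (1.09 ± 0.060) overlaps the lysosomal protease gene CTSD (1.13 ± 0.054), AL603832.1 (1.19 ± 0.11) the helicase gene MOV10 (1.21 ± 0.056), AC245036.5 (1.30 ± 0.098) the receptor gene LILRA2 (1.44 ± 0.054) and Z84466.1 (1.14 ± 0.10) the properdin gene CFP (1.10 ± 0.10). AC245036.5 is 1 of 8 lncRNAs that reached 300 counts with NFIC shRNA only, among the 14 that rose by at least 1. The count rule favored a rise in those 8, not each of which is marked here.

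For 29 of the 542 pairs the values of lncRNA and mRNA were 0.5 or more apart. FBXL19-AS1, at chr16:30919319-30923269 on the minus strand, stood farthest from its partner. It had 294, 254 and 313 counts with scrambled shRNA, against 1020, 1102 and 1171 with NFIC shRNA, a log2 fold change of 1.94 ± 0.098, the highest of all 657. It passed the count rule with NFIC shRNA only, so the rule favored a rise. FBXL19, a gene of an F-box protein, starts on the other strand and shares 98 of its 3951 exon bases, and it had 1145, 1291 and 1082 counts against 1227, 1471 and 1301 (0.20 ± 0.061). The lncRNA was far higher in each NFIC shRNA library than in any scrambled one. FBXL19 was called higher, but not with upper-quartile scaling (0.15) or without scrambled shRNA replicate 3 (0.18). ZSWIM8-AS1 (464, 476 and 427 counts against 1196, 1352 and 1304; 1.51 ± 0.067, edgeR adjusted p = 1.5e-11) differed from AC022400.7, a protein-coding gene of the same strand (0.60 ± 0.066), with which it shares most bases. ZSWIM8, on the other strand at the same place and the gene of a ubiquitin ligase adaptor that triggers microRNA decay, changed by 1.47.

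Other named lncRNAs that share a part of their exon bases follow, each with the value of its partner where that was tested. PCBP1-AS1, a gene of 33645 exon bases, had 5183, 5699 and 5089 counts against 2759, 3347 and 2975, a log2 fold change of -0.80 ± 0.052 (edgeR adjusted p = 1.04e-09), beside -1.35 for ASPRV1, with which it shares 1528 bases. FGD5-AS1, which shares 5.5% of its exon bases, had 3817, 4220 and 3775 counts against 4880, 5313 and 5517 (0.43 ± 0.047, adjusted p = 6.1e-07 by edgeR). OIP5-AS1, also called cyrano, a cytoplasmic RNA known to bring about decay of miR-7, had 5114, 6015 and 5140 counts against 5552, 6288 and 6010. Its log2 fold change was 0.15 ± 0.047, while OIP5, which shares 759 bases with it, changed by 0.94 ± 0.11. The call of OIP5-AS1 (edgeR adjusted p = 0.0102) did not pass with upper-quartile scaling (0.095) or without scrambled shRNA replicate 1 (0.13). HCG18 changed by -0.35 ± 0.084 beside 0.23 ± 0.095 for TRIM39, and AC010226.1 by 0.03 ± 0.096 beside 1.14 ± 0.20 for TICAM2, an adaptor of Toll-like receptor 4.

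To reach lncRNAs with reads of their own, the counts of every gene that shares any exon base with a lncRNA were added up and taken from its count, as if each read of those genes had also been counted for it. At least 50% of the counts remained in every library for 63 of the 651 genes. For 570 nothing was left, which sets a bound and does not show that a gene had no reads of its own. The 63 were picked after the values of these libraries had been seen. They held 0.306% ± 0.017 of all counts with scrambled shRNA, against 0.321% ± 0.016 with NFIC shRNA (SD, n = 3 per group; exact two-sided permutation p = 0.4). Their levels ran from 0.506 to 89.0 FPKM with a median of 5.96. Of the 63, 22 were higher with NFIC shRNA, 28 lower and 13 not called, with a median log2 fold change of -0.15. Of the 43 among them past the count rule in both groups, 17 were higher and 15 lower (59.9% of all genes tested were called), and the median was -0.0064.

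NORAD (ENSG00000260032, chr20:36045618-36051018, minus strand), a cytoplasmic RNA known for its role in genome stability, had the highest mean FPKM of the 63. Its counts were 9455, 9316 and 9181 with scrambled shRNA, against 11571, 12908 and 12492 with NFIC shRNA. Every NFIC shRNA library was above every scrambled one, with 415 ± 31.7 CPM against 553 ± 10.4 CPM (SD, n = 3 per group) and a log2 fold change of 0.41 ± 0.056 (edgeR adjusted p = 5.32e-06). No exon base of NORAD is shared. Of the 8 genes of its protein partners 1 was higher and 1 lower, with a median of 0.039, while 59.9% of all genes tested were called.

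AL713998.1, an unstudied lncRNA at chr6:67878316-67889339, was next by FPKM, with 9903, 10963 and 10226 counts against 8673, 10245 and 8899. The log2 fold change was -0.15 ± 0.055 (edgeR adjusted p = 0.0293), and the call did not pass in 7 of the alternative fits, among them the DESeq2 test and the fits without scrambled shRNA replicate 1 or 3 or NFIC shRNA replicate 1 or 3 (-0.19 to -0.090 over the fits without 1 library). LINC01388, the next by FPKM, had 448, 506 and 408 counts against 436, 491 and 411, and its groups overlapped (-0.01 ± 0.088).

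TUG1 (ENSG00000253352, chr22:30969245-30979395, plus strand), a widely expressed RNA linked to Polycomb, had 4979, 4928 and 4780 counts against 7271, 8573 and 8323. That is 218 ± 15.7 CPM against 361 ± 8.38 CPM, a log2 fold change of 0.73 ± 0.055 (edgeR adjusted p = 5.94e-09), and the largest increase among the well known nuclear lncRNAs measured. At least 54.9% of its counts were its own in every library. Gencode release 44 lists TUG1 as protein-coding. MALAT1, the abundant RNA of nuclear speckles, had 2199, 2054 and 2109 counts against 2422, 2291 and 2146, and the groups overlapped in CPM (0.12 ± 0.091, edgeR adjusted p = 0.257). NEAT1 (ENSG00000245532, chr11:65422774-65445540, plus strand) was lower, with 2889, 2341 and 2375 counts against 1419, 1728 and 1368. It fell from 113 ± 19.3 to 67.5 ± 7.68 CPM, a log2 fold change of -0.74 ± 0.12 (edgeR adjusted p = 0.000619). MALAT1 is poor in poly(A) and NEAT1 exists in a short form with poly(A) and a long form without it. A library made by selection for poly(A) would thus hold part of either. The paper names mRNA sequencing and does not say how the mRNA was selected.

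**Figure D1:**
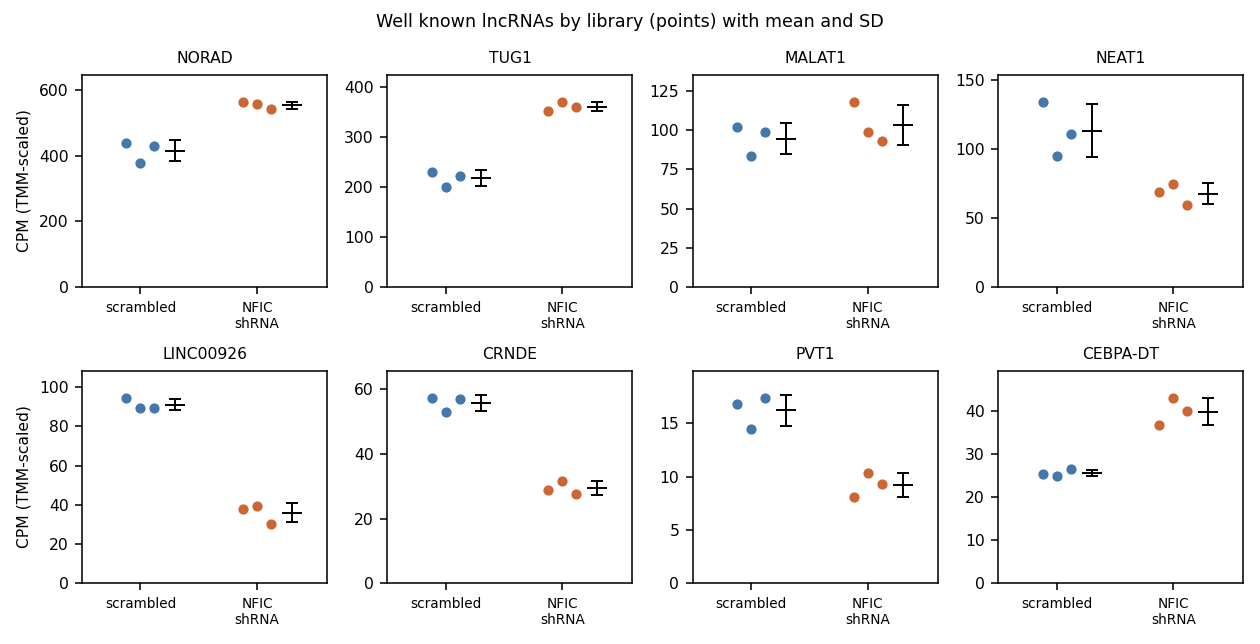
CPM after TMM scaling in each library (points, 3 per group) with the group mean and SD (bars) for 8 well known lncRNAs, each on an axis from 0. NORAD, TUG1 and CEBPA-DT sit higher in all 3 NFIC shRNA libraries, NEAT1, LINC00926, CRNDE and PVT1 lower, and the groups of MALAT1 overlap.

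Of the 15 nuclear and chromatin-linked lncRNAs counted, 13 were tested, of which 3 were higher and 4 lower, with a median of 0.052 (53.8% called, beside 47.5% of lncRNA genes tested). LINC01578, also called CHASERR, which lies upstream of CHD2, had 0.48 ± 0.059, and CHD2, a chromatin remodeler gene that shares 1.9% of its exon bases, had 0.39 ± 0.051. FTX and JPX, both of the X inactivation center and transcribed against each other with shared exons, had 0.02 ± 0.066 and 0.36 ± 0.081. HCG11 (614, 615 and 609 counts against 603, 685 and 609) had 0.06 ± 0.078. The genes of paraspeckle proteins, which bind NEAT1, were given as a list of 21, of which 9 were higher and 5 lower with a median of 0.11 (66.7% called, beside 72.3% of protein-coding genes under the count rule). PSPC1 (0.30) and SFPQ (0.21) were higher, HNRNPA1 (-0.71) was lower and NONO (0.06) did not pass. Of 16 genes of the nuclear exosome and its NEXT and PAXT adaptors, which degrade many noncoding transcripts, 7 were higher and 3 lower (median 0.14; 62.5% called, beside the same 72.3%). EXOSC10 (0.35) and the helicase gene MTREX (0.18) were higher, while PABPN1 (-0.63) was lower.

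Of 6 MYC or p53 linked lncRNAs tested, 5 were lower (median -0.90), while 30.3% of all genes tested were lower, and TP53TG1 (-0.33) did not pass. CASC11, which starts next to MYC in the other direction, had 1068, 1362 and 1036 counts with scrambled shRNA, against 438, 469 and 441 with NFIC shRNA (-1.34 ± 0.075). MYC, the growth-promoting transcription factor, changed by -1.39 ± 0.064 and shares 194 bases with CASC11, so that no count of CASC11 could be called its own. PVT1, which lies downstream of MYC and is known to affect MYC protein, had 363, 357 and 371 counts against 167, 240 and 215. At least 52.9% of its counts were its own, and its log2 fold change was -0.80 ± 0.11. It passed the count rule in the scrambled shRNA group only. The other lower genes of that list were NEAT1, described above, and LINC-PINT (-1.0) and MINCR (-1.15), both below 300 counts.

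LINC00926 had the steepest fall among the 43 lncRNAs with counts of their own that passed in both groups. Its counts were 2039, 2200 and 1915 against 783, 921 and 704, or 91.0 ± 2.80 against 36.1 ± 4.88 CPM (-1.34 ± 0.079, edgeR adjusted p = 6.14e-10). CRNDE, an RNA raised in many tumors, had 1237, 1301 and 1220 counts against 596, 738 and 639 (-0.92 ± 0.069, adjusted p = 5.85e-09 by edgeR). LINC01305 (-0.88 ± 0.076), LINC01694 (-0.98 ± 0.10) and AL033527.4 (-0.78 ± 0.083) were lower as well. Of those that reached 300 counts with scrambled shRNA only, TMCC1-AS1 had 437, 433 and 439 counts against 130, 162 and 104 (-1.71 ± 0.13), and AC090796.1 had 314, 447 and 300 against 106, 112 and 102 (-1.70 ± 0.13). TRG-AS1, antisense to the T cell receptor gamma locus, had 318, 365 and 319 against 123, 118 and 116 (-1.47 ± 0.11). AL355922.1 had -1.20 ± 0.12, and its newer name, RNASE2CP, is that of a pseudogene, so that its reads may be shared with genes of like sequence and the value is uncertain.

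Increases among the 63 were led by AC104232.1, with 144, 177 and 145 counts against 563, 568 and 545, a log2 fold change of 1.87 ± 0.096. MROCKI, a lncRNA near MARCKS described in macrophages, had 267, 233 and 232 counts against 527, 583 and 431 (1.09 ± 0.13). These reached 300 counts with NFIC shRNA only, as did GABPB1-IT1, an intronic transcript of GABPB1 (0.81 ± 0.090). Of those past the rule in both groups, AL050341.2 (ZMPSTE24-DT) had 423, 436 and 444 counts against 811, 884 and 894 (1.00 ± 0.075, edgeR adjusted p = 5.29e-09). AC008124.1 (LINC00938) had 2487, 2418 and 2191 against 4036, 4917 and 4529 (0.94 ± 0.060, adjusted p = 8.69e-10 by edgeR). In all of these each NFIC shRNA library was above each scrambled one.

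Many lncRNAs start beside a protein-coding gene that runs the other way, and the pair can share a promoter region. Of the 63, 24 have such a divergent or overlapping opposite-strand gene, which was tested for 23. In 14 pairs both genes were called, 9 in the same and 5 in opposite directions. Taken singly, 79.4% of the 63 lncRNAs and 72.3% of protein-coding genes under the count rule were called, beside 59.9% of all genes tested. Of the 43 lncRNAs past the rule in both groups, 74.4% were called. The rule favored a call in the others, and the pairs include some of these, such as those of GAS6-DT and TMCC1-AS1. Whether the directions within pairs are linked was not tested. Pearson's r across the 23 pairs was 0.15, and the median absolute difference in log2 fold change was 0.37, as against 0.038 for lncRNAs wholly inside other exons. GAS6-DT (398, 327 and 409 counts against 114, 155 and 145; -1.45 ± 0.14) and GAS6 (-1.52 ± 0.11) start 36 bases apart and were both lower. GAS6-DT reached 300 counts with scrambled shRNA only, so the count rule favored its fall. NIPBL-DT (0.55 ± 0.079) and NIPBL, the cohesin loader gene (0.22 ± 0.052), were both higher, as were ZMPSTE24-DT and ZMPSTE24, the lamin protease gene (0.34 ± 0.052). GATA2-AS1 (0.26 ± 0.089) and GATA2, a stem and progenitor transcription factor gene (0.52 ± 0.12), were higher too.

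In 5 pairs the calls were in opposite directions. CEBPA-DT (ENSG00000267296, chr19:33302857-33305054, plus strand) had 548, 615 and 567 counts with scrambled shRNA, against 757, 995 and 920 with NFIC shRNA (0.64 ± 0.074, edgeR adjusted p = 9.35e-07). CEBPA, the master factor of granulocyte and monocyte differentiation, starts 323 bases away and changed by -0.51 ± 0.061 (edgeR adjusted p = 1.91e-06). TUG1 was higher and MORC2, a chromatin-silencing ATPase gene, lower (-0.32 ± 0.060). LINC00938 was higher and ARID2, a chromatin remodeling subunit gene, lower (-0.29 ± 0.047). CRNDE was lower beside IRX5, a homeobox gene, at 0.24 ± 0.086. TMCC1-AS1 was lower and TMCC1, an endoplasmic reticulum membrane protein gene that starts 100 bases away, higher (0.79 ± 0.078). NBR2 (-0.17 ± 0.15, not called) sits beside BRCA1 (0.48 ± 0.097), and PSMA3-AS1 (0.17 ± 0.064) beside ARID4A (0.65 ± 0.054).

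**Figure D2:**
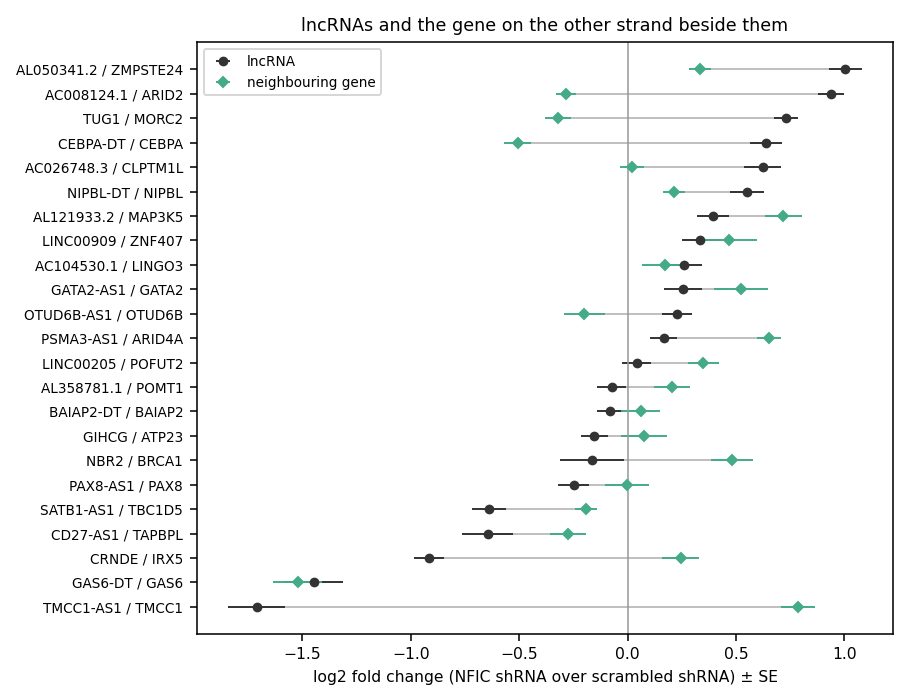
Log2 fold change with its standard error (horizontal axis) of 23 lncRNAs with counts of their own (black circles) and of the protein-coding gene beside each on the other strand (green diamonds), ordered by the lncRNA. Grey lines join each pair, and the 5 pairs called in opposite directions are those of ARID2, MORC2, CEBPA, IRX5 and TMCC1.

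A microRNA is cut from a hairpin in a longer host transcript, and bases 2 to 8 of the mature form, the seed, choose most of its targets. By position in RefSeq (GRCh38.p14), 18 of the 657 lncRNAs hold 26 hairpins on their own strand, of which 6 hosts were higher, 8 lower and 4 not called, while 59.9% of all genes tested and 71.1% of the 657 were called. The mature forms of the hosts described next are printed here with the seed in capitals, since they carry what is known of these hosts.
hsa-miR-223-3p (host AL034397.3, MIR223HG): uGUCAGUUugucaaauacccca
hsa-miR-142-3p (host AC004687.1, MIR142HG): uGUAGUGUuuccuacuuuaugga
hsa-miR-142-5p (host AC004687.1, MIR142HG): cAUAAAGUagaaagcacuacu
hsa-miR-15a-5p (host DLEU2): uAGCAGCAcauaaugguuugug
hsa-miR-16-5p (host DLEU2): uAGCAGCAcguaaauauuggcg
hsa-miR-9-5p (host MIR9-3HG): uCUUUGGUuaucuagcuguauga
hsa-miR-646 (host MIR646HG): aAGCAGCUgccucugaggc
hsa-miR-302c-3p (host MIR302CHG): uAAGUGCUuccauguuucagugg

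miR-15a-5p and miR-16-5p share the seed AGCAGCA, and 4 seeds in all are shared by more than 1 of the 45 mature forms. The libraries measure the host RNA and not the mature microRNA. MIR223HG (chrX:66015414-66020426, plus strand) had 837, 937 and 875 counts with scrambled shRNA, against 557, 764 and 602 with NFIC shRNA, 39.2 ± 1.47 against 28.7 ± 3.71 CPM, a log2 fold change of -0.45 ± 0.083 (edgeR adjusted p = 0.000172). MIR142HG (chr17:58330879-58332523, minus strand) had 1120, 1019 and 1027 against 392, 530 and 333, 47.1 ± 5.25 against 18.8 ± 4.21 CPM (-1.32 ± 0.14, edgeR adjusted p = 9.12e-06). Both hosts of these hematopoietic microRNAs were lower in every NFIC shRNA library. MIR142HG shares 5.8% of its exon bases, most of them with the MIR142 hairpin gene itself, which changed by -1.40. By the bound used above, 0% of the counts of MIR142HG could be called its own in at least 1 library. MIR646HG fell from 22.9 ± 0.566 to 12.7 ± 0.407 CPM (-0.85 ± 0.082, past the count rule with scrambled shRNA only).

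DLEU2, the host of miR-15a and miR-16-1 in the region often lost in chronic lymphocytic leukemia, had 477, 509 and 470 counts against 722, 709 and 796 (0.63 ± 0.077, edgeR adjusted p = 1.86e-06). TRIM13, which shares 690 bases with it, changed by -0.09 ± 0.067 and did not pass. MIR9-3HG had 594, 645 and 552 counts against 1019, 1188 and 1143, 26.5 ± 0.873 against 50.1 ± 0.992 CPM (0.92 ± 0.064, adjusted p = 2.39e-09 by edgeR), with at least 98.1% of its counts its own. MIR1915HG (0.39 ± 0.077) and MIR4435-2HG (0.63 ± 0.064, beside 1.18 ± 0.051 for BCL2L11, a proapoptotic gene that overlaps it) were higher. MIR302CHG (0.44 ± 0.083) lies within LARP7 (0.46 ± 0.065), and 71.6% of its exon bases are shared, so that value does not speak for the miR-302 cluster of stem cells. Over all lncRNAs named as microRNA hosts, 29 were tested, 9 higher and 9 lower, with a median of -0.25 (62.1% called, beside 47.5% of lncRNA genes tested). Each of 10 genes of microRNA processing and loading was called, 7 higher and 3 lower, beside 72.3% of the protein-coding genes under the count rule. DICER1 (0.73) and AGO2 (0.39) were higher, and DROSHA (-0.55), which makes the first cut, was lower. The lower call of XPO5, the hairpin exporter, did not pass in 8 of the alternative fits (-0.15 to -0.097).

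Of the 14 myeloid and inflammation lncRNAs tested, 1 was higher and 5 lower (median -0.25; 42.9% called, beside 47.5% of lncRNA genes tested), and 2 of them, MIR223HG and HOXA10-AS, passed the count rule. HOXA10-AS, antisense in the HOXA cluster, had 929, 1044 and 904 counts against 959, 1047 and 1094 and a log2 fold change of 0.12 ± 0.060 (edgeR adjusted p = 0.085), beside 0.11 ± 0.053 for HOXA10. HOXA11-AS (553, 676 and 569 counts against 704, 899 and 884) had 0.48 ± 0.073, beside 0.10 ± 0.076 for HOXA11. In the list of cytoplasmic and genome-stability lncRNAs, 7 were tested, 4 higher and 2 lower (85.7% called, beside 47.5% of lncRNA genes tested), and the 4 past the count rule (NORAD, OIP5-AS1, DLEU1 and DLEU2) were the higher ones. DLEU1 had 0.25 ± 0.085, a call that did not pass with upper-quartile scaling (0.19) or without scrambled shRNA replicate 1 or NFIC shRNA replicate 3 (0.21 without the latter).

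Promoter sequence was looked at because the NFIC protein binds DNA. The nuclear factor I site is a palindrome of the letters TTGGC and, 5 bases on, their reverse complement. This palindrome and TTGGCA were searched on both strands. The latter is the arm TTGGC with an A added, and is called the arm below. The search covered the window of 300 bases around the gene start that RefSeq (GRCh38.p14) gives, with 1 window per gene. Windows were matched for 208 of the 657 lncRNAs. None held the full palindrome, which 9 of all 27305 windows held. The arm was in 21 of the 208 (10.1%), beside 12.7% of all windows, and in 3 of the 34 matched lncRNAs with counts of their own. Those 3 windows follow, with the arm in capitals, written TGCCAA where it lies on the other strand. They are at chr20:36050911-36051210 (minus strand), chr10:21497211-21497510 (minus strand) and chr17:81330625-81330924 (minus strand).
NORAD: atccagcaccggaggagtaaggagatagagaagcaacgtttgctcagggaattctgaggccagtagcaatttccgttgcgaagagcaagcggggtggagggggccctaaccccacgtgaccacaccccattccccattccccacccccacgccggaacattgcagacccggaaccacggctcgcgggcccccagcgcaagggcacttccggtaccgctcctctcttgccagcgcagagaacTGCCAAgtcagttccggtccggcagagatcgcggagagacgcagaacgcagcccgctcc
MIR1915HG: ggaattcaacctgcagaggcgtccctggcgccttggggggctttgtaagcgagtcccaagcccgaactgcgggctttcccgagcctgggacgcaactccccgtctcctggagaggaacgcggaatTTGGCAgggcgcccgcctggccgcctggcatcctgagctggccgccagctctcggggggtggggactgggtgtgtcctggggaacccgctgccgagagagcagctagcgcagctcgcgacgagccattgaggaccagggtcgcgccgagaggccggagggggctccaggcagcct
AC027601.1: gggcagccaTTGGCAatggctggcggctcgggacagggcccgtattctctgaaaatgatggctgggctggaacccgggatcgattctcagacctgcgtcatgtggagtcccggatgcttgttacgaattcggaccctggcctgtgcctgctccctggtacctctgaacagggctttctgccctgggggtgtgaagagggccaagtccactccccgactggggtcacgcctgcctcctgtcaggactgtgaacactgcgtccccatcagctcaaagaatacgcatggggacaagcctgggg
NORAD and MIR1915HG were higher with NFIC shRNA, and AC027601.1 (-0.95 ± 0.12, past the count rule with scrambled shRNA only) was lower. A match of 6 letters is a description of the sequence and not a binding site.

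The lncRNAs just past the count threshold were AC090796.1, whose lowest scrambled shRNA count was 300, EFCAB14-AS1 (310, 300 and 337 counts with NFIC shRNA) and MBNL1-AS1 (301, 313 and 311). Just short of it were ABALON (298, 320 and 353 with NFIC shRNA), AC004490.1 (306, 299 and 322 with NFIC shRNA) and LINC00960 (337, 385 and 298 with scrambled shRNA).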

How the data were processed

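The authors used Trim Galore and FastQC on the reads, STAR for mapping to GRCh38 and featureCounts for counting on Ensembl 96 genes, and the versions are not given in the sources used here. Per the file headers the deposited table holds raw read counts, normalized counts (a signal scaled by DESeq2) and FPKM values for 6 libraries, 3 per group. It also holds the authors' own comparison by DESeq2 (log2 fold changes, a test score and p-values), which was not used. Whether marked duplicates were counted is not given in the sources used here.

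From the raw counts, the groups were compared by the robust quasi-likelihood test of edgeR 4.0.16 (R 4.3.3), after TMM scaling and its filter on low counts, with Benjamini-Hochberg adjustment over 19182 genes and 0.05 as the threshold. FPKM served only to compare levels between genes. Exon overlap and gene positions came from Gencode release 44 (GRCh38), in which 533 of the lncRNAs had the same exon length. Alternatives were DESeq2 1.42.0, limma 3.58.1 (voom), other scalings and filters, other count rules, a replicate block and leaving out each library. On 3 simulated tables with 200 changed genes, 99% of changes of size 1 and 83.3% of size 0.5 (log2) were recovered, and 6.06% to 9.36% of calls were false. Those 200 were drawn from 19182 genes, while 59.9% of genes were called in the real comparison, so these rates may not hold for it. Shares per library were compared with exact permutation tests in scipy 1.17.1.

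The lncRNAs and all gene lists were chosen with earlier results of these data known. Named were NFIC, the 10 lncRNAs of highest FPKM, the 10 that rose most and the 10 that fell most, members of 5 lncRNA lists, the genes next to the count threshold, partners and neighbours, and up to 3 called genes in each direction from each protein list, of which some are not reported here. The 63 lncRNAs with counts of their own, their 10 largest changes in each direction, the lncRNAs that differ from their partner and the promoter windows were added after the values had been seen.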

Additional observations from a re-analysis of the deposited data

How the results depend on the processing

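The 268 higher and 199 lower lncRNAs became 437 and 342 with a rule of 150 counts, 149 and 111 with 600 counts, and 14 and 32 with an absolute log2 fold change of at least 1 (2287 of all genes), all sets of another size by construction. Without exon overlap 15 were higher and 14 lower (median -0.040), and with at least 50% of counts unshared, a set chosen after seeing the data, 22 and 28 (median -0.15). Upper-quartile scaling gave 227 higher and 224 lower. DESeq2 called 436 of the 467, and none besides. Over the fits without 1 library, 236 to 267 were higher, 187 to 196 lower, 10443 to 11300 genes were called, the median ran from 0.054 to 0.087 and NFIC from -1.04 to -0.93. In the fit that took replicates as a block, 256 were higher and 192 lower, with 19 calls lost. The mean of each group was also taken from the log2 CPM of each gene. What remained had correlations of 0.056, -0.086 and -0.045 between same-numbered libraries of the groups. These values show no clear pairing by number, but 3 libraries per group are too few to exclude one. Values near 0 changed sign in 7 genes, and the cause was not tested. Upper-quartile scaling gave EFCAB14-AS1 -0.019 and FTX -0.041, and LINC01388 had 0.0015 with DESeq2 size factors, 0.012 with total counts and 0.0092 by DESeq2. Leaving out 1 library gave ranges of -0.14 to 0.11 for AL662797.2, -0.025 to 0.10 for EFCAB14-AS1, -0.017 to 0.045 for FTX, -0.0068 to 0.11 for HCG11, -0.047 to 0.077 for LINC01388, -0.035 to 0.14 for MBNL1-AS1 and -0.16 to 0.043 for TUBB. Of the other alternative values for single genes, 1725 kept direction and side of the threshold, 33 (8 genes) lost the call and 3 gained one.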
